A study of Mus musculus with 228 samples.

Results

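Pyramidal neurons of hippocampal area CA1 that had received a virus for Ascl4 were compared, over all genes, with CA1 neurons that had received a virus for EGFP alone. Cells were chosen by their titles in the quality-controlled count table, which gave 45 Ascl4 CA1 cells and 46 cells titled GFP CA1, called EGFP CA1 here, or 91 cells. The table also holds granule cells, 51 with the Ascl4 virus and 47 with EGFP alone. All CA1 cells came from Nex-Cre mice aged 3 to 4 months, in which Cre recombinase is made where the Nex gene (Neurod6) is active. The Ascl4 CA1 mice had received Cre-dependent AAV-EGFP together with AAV-Ascl4 by microinjection into the hippocampus, and the EGFP CA1 mice an equal amount of Cre-dependent AAV-EGFP alone. Each cell was drawn into a patch pipette from an acute slice of ventral hippocampus (medial CA1) 1 month after the injection, and its RNA was sequenced. No group received a second virus that lacks Ascl4, so the effect of Ascl4 and that of a second virus cannot be told apart. The labels name no animal. Each group was therefore treated as a lone sample without any test, and the spread between animals is unknown.

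Ascl4 is a basic helix-loop-helix (bHLH) transcription factor of the achaete-scute family, whose members are known from the start of neuronal differentiation in progenitors and from other tissues. CA1 pyramidal neurons are the excitatory output cells of the hippocampus, and they keep bHLH factors of another family, among them Neurod6, into adult life. Fibcd1, a receptor for acetylated sugars, is a marker of CA1 pyramidal neurons. Interferons are signals of antiviral defence. Their receptors act through Janus kinases and STAT factors on a short promoter element, and they raise effector genes, MHC class I genes and chemokines in neurons as well as in glia.

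The CA1 cells held between 1077532 and 25442664 gene reads in the Ascl4 group and between 1178644 and 19850941 in the EGFP group, or 214178461 reads in all Ascl4 CA1 cells and 249606719 in all EGFP CA1 cells. Ascl4 CA1 cells had reads for a median of 6832 genes, and EGFP CA1 cells for 6919.5. After every cell was thinned to 500000 reads that median was 4903 in Ascl4 CA1 cells and 4432 in EGFP CA1 cells. A single Ascl4 CA1 cell stood apart with 17883 genes. Mitochondrially encoded genes took a median of 0.809% of the reads in Ascl4 CA1 cells (highest 37.7%) and 0.944% in EGFP CA1 cells (highest 17.4%). Levels below are reads summed over the cells of a group per 1000000 gene reads (CPM), and per-cell values are CPM of each cell. Intervals of CPM and of ratios are 95% intervals that cover the counting of reads only, and the spread over cells or animals is outside them. Those of a share of cells cover the counting of cells, each taken as an independent draw. Cells of the same animal may not be independent, and the spread between animals is outside these intervals too. In reads summed from bulk or pipette samples, fewer cells with a transcript and less transcript per cell cannot be told apart from the sum, and the number of cells at 10 CPM or more is given beside it. By title number the CA1 cells form 3 Ascl4 blocks and 2 EGFP blocks that alternate without a gap, and the labels do not call them batches. Values are also given within 2 runs made here by a cut through these numbers, a lower run with 1 block of each group (17 Ascl4 CA1 and 15 EGFP CA1 cells) and a higher run with the other 2 Ascl4 blocks and the other EGFP block (28 Ascl4 CA1 and 31 EGFP CA1 cells). Over all expressed genes the median log2 ratio was 0.13 in the lower and -0.08 in the higher run. Of single genes, higher or lower in a run means the sign of the ratio there, not a 2-fold change. The cells of both runs also enter the comparison over all cells, so an equal sign in both is partly built in.

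Ascl4 itself was the most widely separated gene of the 3 markers. Its level was 23.2 CPM in the lowest, 6716 CPM in the median and 31943 CPM in the highest Ascl4 CA1 cell, against 0.781, 16.1 and 153.2 CPM in the lowest, median and highest EGFP CA1 cell. All Ascl4 CA1 cells but 1 were at 1000 CPM or more (44 of 45), no EGFP CA1 cell was (0 of 46), and the groups overlapped only through that lowest Ascl4 cell. Over summed reads the level was 9395 CPM in Ascl4 CA1 cells (interval 9382 to 9408) and 32.6 CPM in EGFP CA1 cells (interval 31.8 to 33.3), a ratio of 289 (interval 282 to 295). The gene lies on chromosome 10, at 85927681 to 85946206 of GRCm38, on the plus strand, and reads from the virus and from the cell's own gene were counted together.

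Neurod6 and Fibcd1 fell in the Ascl4 CA1 cells. Neurod6 ranged from 0 through a median of 2.80 to 556 CPM in Ascl4 CA1 cells, against 0, 219.3 and 1348 CPM in EGFP CA1 cells. It was at 10 CPM or more in 19 of 45 Ascl4 CA1 cells (42.2%, exact Clopper-Pearson interval 27.7 to 57.8%) and in 40 of 46 EGFP CA1 cells (87%, interval 73.7 to 95.1%). The median Ascl4 CA1 cell was thus below 10 CPM and the median EGFP CA1 cell well above it, while the full ranges of the groups overlapped. Fibcd1 had a median of 1.65 CPM and a highest value of 958 CPM in Ascl4 CA1 cells, against 440 and 7060 CPM in EGFP CA1 cells. Levels of 10 CPM or more were found in 16 of 45 Ascl4 CA1 cells and in 39 of 46 EGFP CA1 cells. Neither gene reached 10 CPM in 18 of 45 Ascl4 CA1 cells (40%, interval 25.7 to 55.7%) and in 1 of 46 EGFP CA1 cells (2.17%, interval 0.0550 to 11.5%), and both did in 8 Ascl4 CA1 and 34 EGFP CA1 cells. In the lower run Neurod6 reached 10 CPM in 7 of 17 Ascl4 CA1 and 13 of 15 EGFP CA1 cells, and in the higher run in 12 of 28 Ascl4 CA1 and 27 of 31 EGFP CA1 cells. Neurod6 is also the gene whose control regions drive Cre in these mice, in both groups. Against the label of the cells, 2 of the 3 markers that should be present in them were thus low in many Ascl4 CA1 cells, which are named here by their titles.

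More Ascl4 CA1 cells held Slc17a7 or Camk2a than held Neurod6 or Fibcd1. Slc17a7 and Camk2a were chosen after their values were seen. Slc17a7, the vesicular glutamate transporter of hippocampal pyramidal cells, had a median of 220 CPM in Ascl4 CA1 cells and 533 CPM in EGFP CA1 cells, with at least 10 CPM in 39 of 45 Ascl4 CA1 and 44 of 46 EGFP CA1 cells. Camk2a, a kinase of excitatory neurons, reached 10 CPM in 31 of 45 Ascl4 CA1 and 41 of 46 EGFP CA1 cells. Neither gene was counted as 2-fold lower, with log2 ratios of the summed reads of -0.86 for Slc17a7 and -0.55 for Camk2a, but from the mean of per-cell CPM the ratio of Slc17a7 was -1.17. Of the 18 Ascl4 CA1 cells in which neither Neurod6 nor Fibcd1 reached 10 CPM, 12 had Slc17a7 and 12 had Camk2a at that level.

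**Figure D1:**
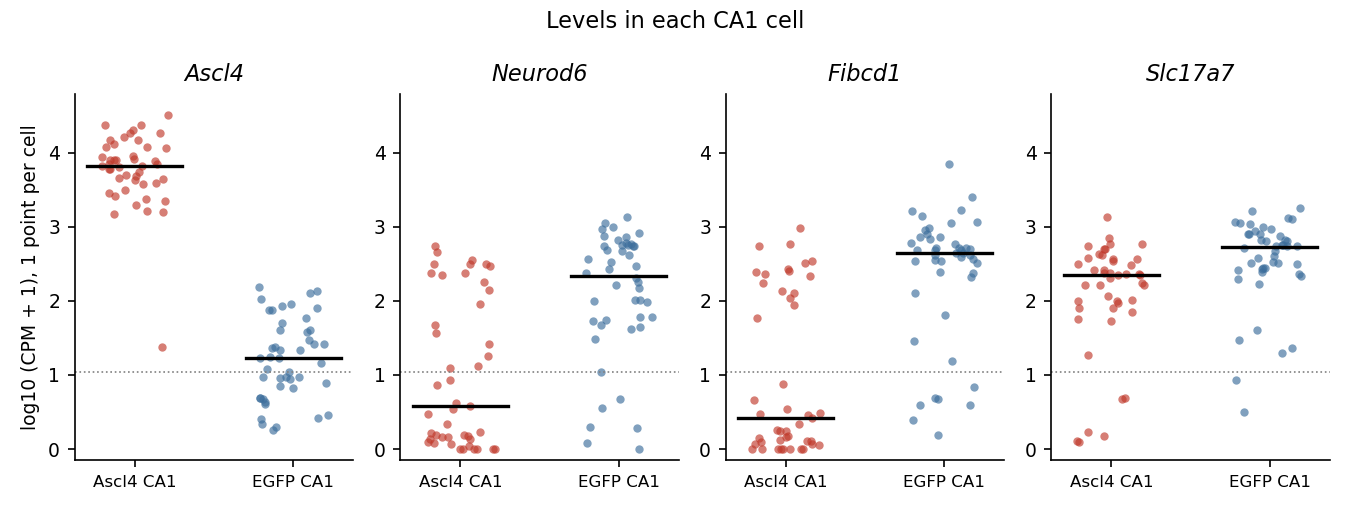
Levels of Ascl4, Neurod6, Fibcd1 and Slc17a7 in each CA1 cell, as log10 of CPM plus 1 on the vertical axis, with Ascl4 CA1 cells left and EGFP CA1 cells right. Each point is 1 cell, the bar is the median, and the dotted line marks 10 CPM. Ascl4 separates the groups apart from 1 Ascl4 CA1 cell at 23.2 CPM, and Neurod6 and Fibcd1 have medians of 2.80 and 1.65 CPM in Ascl4 CA1 cells and 219.3 and 440 CPM in EGFP CA1 cells.

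Across the transcriptome, 9781 genes were expressed, that is, had a read in at least 25% of the cells of 1 group and at least 10 CPM in 1 group. A gene near 0 in 1 group could thus enter through the other group alone, which favours a change among such genes. A gene was counted as higher or lower when the summed reads, and also the mean of the cells without the highest cell of each group, were both at least 2-fold apart in one direction, with 1 CPM added to each level. By this rule 1000 genes rose (10.2% of the expressed genes) and 939 fell (9.6%), and the median log2 ratio of Ascl4 over EGFP over all expressed genes was -0.02. Without the cell that had 17883 genes, 1017 genes rose and 966 fell. Both shares are the background against which the counts of each gene list are given below. Of the counted genes, 1314 were also at least 1.5-fold apart in that direction within each run of title numbers. From these, the 15 genes with the widest rise and the 15 with the widest fall in the share of cells at 10 CPM were taken, leaving out mitochondrially encoded, ribosomal protein and predicted genes and pseudogenes. The smallest rise taken was 33.8 percentage points, a tie with the next gene that the log2 ratio broke, and the smallest fall taken was -27.6 points, against -25.9 for the next gene. After thinning to 500000 reads all 30 kept the direction of the change in that share. They were chosen for a wide gap in these same cells, so the direction could hardly turn.

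**Figure D2:**
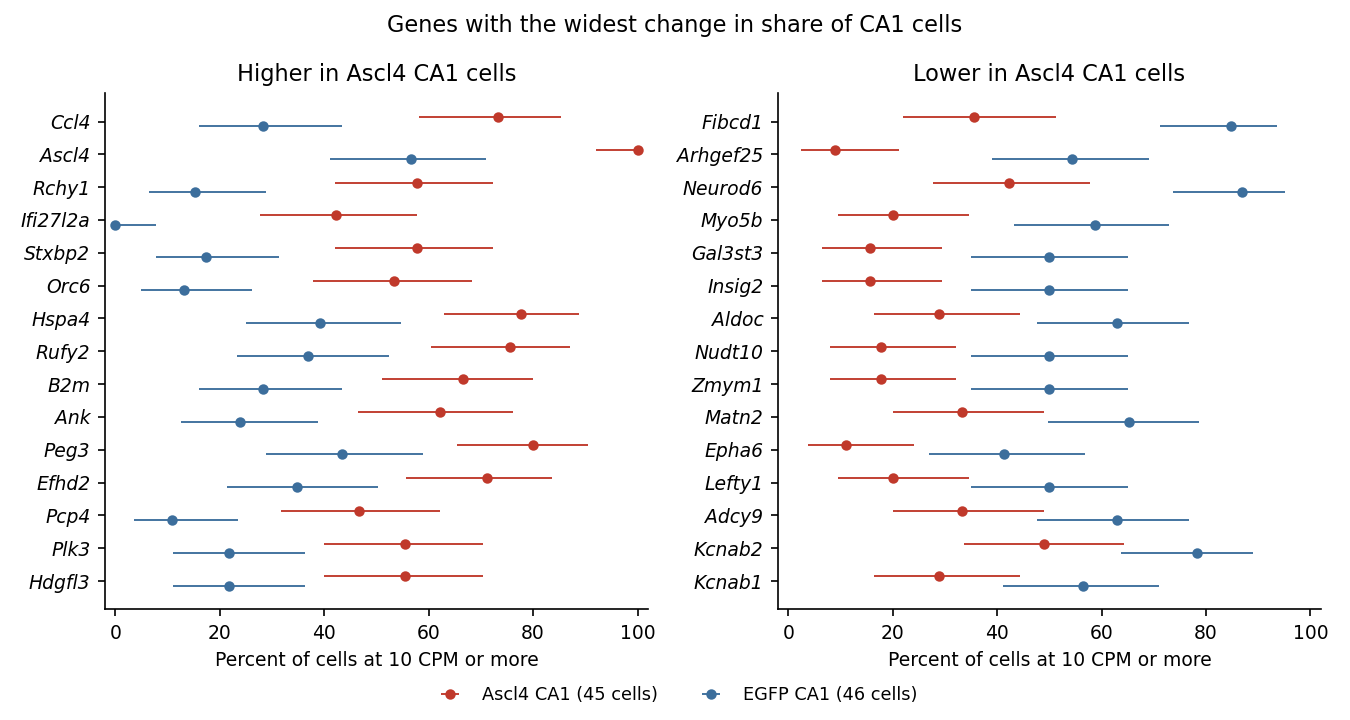
Share of CA1 cells at 10 CPM or more, in percent on the horizontal axis, for the 15 genes with the widest rise (left panel) and the 15 with the widest fall (right panel), Ascl4 CA1 above EGFP CA1 in each row. Lines are exact 95% intervals for counting cells. The shares run from 42.2 to 100% in Ascl4 CA1 cells and from 0 to 56.5% in EGFP CA1 cells for the genes that rose, and from 8.89 to 48.9% in Ascl4 CA1 cells and from 41.3 to 87% in EGFP CA1 cells for those that fell.

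The 15 genes with the widest fall included Fibcd1 and Neurod6, described above. Arhgef25, an exchange factor for small GTPases, had a median of 0 and a highest value of 142.4 CPM in Ascl4 CA1 cells, against 21.1 and 615 CPM in EGFP CA1 cells. Levels of 10 CPM or more were found in 4 of 45 Ascl4 CA1 cells and 25 of 46 EGFP CA1 cells, and its summed level was 8.24 CPM in Ascl4 CA1 and 94.8 CPM in EGFP CA1 cells. Myo5b, the myosin motor that carries recycling endosomes into dendritic spines, reached 10 CPM in 9 Ascl4 CA1 and 27 EGFP CA1 cells, with summed levels of 54.0 CPM in Ascl4 CA1 and 386 CPM in EGFP CA1 cells. A lower level in each run was a condition of the choice, and the log2 ratios were -5.17 and -2.84 for Arhgef25 and -3.78 and -2.18 for Myo5b in the lower and the higher run.

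Beta subunits of voltage-gated potassium channels were among the genes that fell. Kcnab2 was at 9.95 CPM in the median Ascl4 CA1 cell and 78.4 CPM in the median EGFP CA1 cell, and it reached 10 CPM in 22 Ascl4 CA1 and 36 EGFP CA1 cells. Kcnab1 was at 0.822 CPM in the median Ascl4 CA1 cell and 85.8 CPM in the median EGFP CA1 cell, with 13 Ascl4 CA1 and 26 EGFP CA1 cells at 10 CPM. Adcy9, an adenylyl cyclase, had medians of 0.515 CPM in Ascl4 CA1 and 66.5 CPM in EGFP CA1 cells. Matn2, a matrix protein, had medians of 0.625 CPM in Ascl4 CA1 and 163.1 CPM in EGFP CA1 cells, and Insig2, the sterol sensor that holds SREBP in the endoplasmic reticulum, 0.146 CPM in Ascl4 CA1 and 11.7 CPM in EGFP CA1 cells. In each of these genes the lowest cell of both groups was at 0, so the ranges overlapped, and the median Ascl4 CA1 cell was below 10 CPM.

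Lefty1, an inhibitor of Nodal signalling, reached 10 CPM in 9 Ascl4 CA1 and 23 EGFP CA1 cells. Epha6, an Eph receptor, did so in 5 Ascl4 CA1 and 19 EGFP CA1 cells, and Gal3st3, a sugar sulfotransferase, in 7 Ascl4 CA1 and 23 EGFP CA1 cells. Nudt10 and Zmym1 each reached it in 8 Ascl4 CA1 and 23 EGFP CA1 cells. Aldoc, the aldolase of astrocytes and some neurons, completed the group, and its values are given with the astrocyte markers.

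The 15 genes with the widest rise, besides Ascl4, mixed immune genes (Ccl4, Ifi27l2a and B2m) with genes of other functions. Peg3, an imprinted zinc finger gene, was at 0.377, 355 and 2405 CPM in the lowest, median and highest Ascl4 CA1 cell, against 0, 4.33 and 1137 CPM in EGFP CA1 cells, with at least 10 CPM in 36 of 45 Ascl4 CA1 and 20 of 46 EGFP CA1 cells. Stxbp2, which regulates the membrane fusion machinery of secretory granules, was at a median of 192.9 CPM in Ascl4 CA1 cells and 0.659 CPM in EGFP CA1 cells, with 26 Ascl4 CA1 and 8 EGFP CA1 cells at 10 CPM. Hspa4, a partner of the Hsp70 chaperones, had medians of 131.8 CPM in Ascl4 CA1 and 1.71 CPM in EGFP CA1 cells. These genes were below 10 CPM in the median EGFP CA1 cell and well above it in the median Ascl4 CA1 cell.

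Plk3, a stress-responsive polo-like kinase, rose to a summed level of 280 CPM in Ascl4 CA1 cells, against 38.6 CPM in EGFP CA1 cells. Rchy1, a ubiquitin ligase for p53, was at 106.4 CPM in Ascl4 CA1 and 48.9 CPM in EGFP CA1 cells, with at least 10 CPM in 26 Ascl4 CA1 and 7 EGFP CA1 cells. Orc6, a subunit of the origin recognition complex, reached 10 CPM in 24 Ascl4 CA1 and 6 EGFP CA1 cells. Pcp4, a calmodulin regulator known in hippocampus from area CA2 and the dentate gyrus, reached it in 21 Ascl4 CA1 and 5 EGFP CA1 cells. Hdgfl3 reached it in 25 Ascl4 CA1 and 10 EGFP CA1 cells, and Rufy2 in 34 Ascl4 CA1 and 17 EGFP CA1 cells. Ank, a transporter that exports pyrophosphate, reached it in 28 Ascl4 CA1 and 11 EGFP CA1 cells, and Efhd2, a calcium-binding protein, in 32 Ascl4 CA1 and 16 EGFP CA1 cells.

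The list of CA1 pyramidal identity genes held 25 genes, of which 24 were expressed. Of these, 9 fell (37.5%, against 9.6% of all expressed genes) and 2 rose (8.33%, against 10.2%), and the median log2 ratio was -0.79, against -0.02 over all expressed genes. All 9 were lower in both runs of title numbers, while the list's median was -0.09 in the lower and -1.15 in the higher run. In the lower run alone 3 members were counted as 2-fold lower, and in the higher run alone 13. Runx1t1, a transcriptional corepressor, reached 10 CPM in 20 Ascl4 CA1 and 31 EGFP CA1 cells, and Spink8, a protease inhibitor used as a CA1 marker, in 11 Ascl4 CA1 and 24 EGFP CA1 cells. The list did not move as a block. Dcn, which encodes the matrix proteoglycan decorin, rose to 607 CPM in Ascl4 CA1 cells, against 174.8 CPM in EGFP CA1 cells, and reached 10 CPM in 34 Ascl4 CA1 and 13 EGFP CA1 cells. Wfs1, the endoplasmic reticulum protein wolframin, was at 246 CPM in Ascl4 CA1 and 78.1 CPM in EGFP CA1 cells. Cpne7 (1223 CPM in Ascl4 CA1, 1257 CPM in EGFP CA1) and Crym, a thyroid hormone binding protein (653 CPM in Ascl4 CA1, 747 CPM in EGFP CA1), were not counted. Per cell, a median of 12 genes of the list reached 10 CPM in Ascl4 CA1 cells and 16 in EGFP CA1 cells.

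The other glutamatergic identity genes were mostly not counted. Of 18 expressed members 2 rose and none fell. Those 2 were Neurod1 (32.2 CPM in Ascl4 CA1, 13.4 CPM in EGFP CA1), a bHLH factor related to Neurod6, and Tbr1 (12.8 CPM in Ascl4 CA1, 2.90 CPM in EGFP CA1), a T-box factor of cortical pyramidal neurons. Camk2b and the pyramidal cell regulator Zbtb20 had log2 ratios of -0.00 and 0.29. Among the proneural bHLH, E-protein and Id factors only 7 of 24 genes were expressed. Id2, an inhibitor of bHLH factors, rose (236 CPM in Ascl4 CA1, 81.8 CPM in EGFP CA1), although 17 cells of each group reached 10 CPM, and Mxd4, an antagonist of Myc, fell (25.6 CPM in Ascl4 CA1, 84.04 CPM in EGFP CA1). Tcf4, an E-protein that pairs with achaete-scute factors, was at 591 CPM in Ascl4 CA1 and 580 CPM in EGFP CA1 cells. Of the genes that mark immature neurons none of 15 expressed members rose and 1 fell, and of progenitor and cell cycle genes 1 of 7 rose and 1 fell. In the Notch pathway, which achaete-scute factors regulate in development, 2 of 14 expressed members rose, the receptor Notch2 and the inhibitor Numb, and 2 fell, among them the target Hes1 (4.22 CPM in Ascl4 CA1, 53.8 CPM in EGFP CA1). Numb had a log2 ratio of -0.10 without the cells that held 3 or more microglia markers, and Mxd4 one of 0.13 without the deepest 10% of cells. With 1 or 2 genes in each direction, these lists did not stand out from the 10.2% and 9.6% of all genes.

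Interferon-induced genes rose in the Ascl4 CA1 cells more widely than any neuronal list examined here. Of 43 effector genes with counts, 17 were expressed, and 15 of these rose (88.2%, against 10.2% of all expressed genes) and none fell. Their median log2 ratio was 3.92, and over all 43, with no demand on expression, it was 2.84. Without that demand 29 of the 43 were counted as higher, against 1735 of all 22870 genes. All 15 were higher in both runs, with list medians of 2.60 in the lower and 4.73 in the higher run. In the lower run alone 10 effectors were counted as 2-fold higher, and in the higher run alone 18. After thinning to 500000 reads 7 were counted as higher. At least 3 effector genes reached 10 CPM in 28 of 45 Ascl4 CA1 cells (62.2%, interval 46.5 to 76.2%) and in 2 of 46 EGFP CA1 cells (4.35%, interval 0.531 to 14.8%). In the lower run these were 11 of 17 Ascl4 CA1 and 0 of 15 EGFP CA1 cells, and in the higher run 17 of 28 Ascl4 CA1 and 2 of 31 EGFP CA1 cells. The 2 Ascl4 blocks pooled in the higher run were unlike. Cells with at least 3 effectors were a minority in the earlier of these blocks and a large majority in the later one. Both were compared with the same EGFP block, and the cause of the difference between them was not tested. Over all blocks pooled, most Ascl4 CA1 cells thus carried several effector transcripts. The effector count per cell had a median of 4 in Ascl4 CA1 and 1 in EGFP CA1 cells.

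Single effectors were each seen in a minority of cells. Ifi27l2a, a small interferon-induced protein, was at 0, 0.301 and 604 CPM in the lowest, median and highest Ascl4 CA1 cell, against 0, 0 and 0.536 CPM in EGFP CA1 cells. Levels of 10 CPM or more were found in 19 of 45 Ascl4 CA1 cells and in no EGFP CA1 cell. Xaf1, which favours cell death, reached 10 CPM in 13 Ascl4 CA1 and 0 EGFP CA1 cells, and Isg15, a ubiquitin-like modifier, in 11 Ascl4 CA1 and 2 EGFP CA1 cells. Lgals3bp and Bst2 (tetherin, which holds budding viruses at the membrane) each reached it in 10 Ascl4 CA1 cells, against 0 EGFP CA1 cells for Lgals3bp and 1 for Bst2. Ifit1, which binds viral RNA, reached it in 8 Ascl4 CA1 and 0 EGFP CA1 cells. The exceptions were Ifi27 (87.2 CPM in Ascl4 CA1, 121.3 CPM in EGFP CA1) and Cmpk2 (16.1 CPM in Ascl4 CA1, 37.7 CPM in EGFP CA1), which were not counted in either direction.

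The promoter sequences of 3 of these immune genes are given because the core of the interferon-stimulated response element was frequent among the effectors that rose. The core searched was GAAA, any pair of bases, then GAAA, on either strand. Sequences are RefSeq windows of GRCm38.p6 of 300 bases, from 250 bases before to 50 bases after the annotated start, written 5′ to 3′ along the gene, with matches in capitals. B2m is at chr2:122147437-122147736, plus strand, Isg15 at chr4:156200769-156201068, minus strand, and Ifit1 at chr19:34640639-34640938, plus strand. The B2m window holds 1 match, the Isg15 window 3 overlapping matches and the Ifit1 window 2.
B2m: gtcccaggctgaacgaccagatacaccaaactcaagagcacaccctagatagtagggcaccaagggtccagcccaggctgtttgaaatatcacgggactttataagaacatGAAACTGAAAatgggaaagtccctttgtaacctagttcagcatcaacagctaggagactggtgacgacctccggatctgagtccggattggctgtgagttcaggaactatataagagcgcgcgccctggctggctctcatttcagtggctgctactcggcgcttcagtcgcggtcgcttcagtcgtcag
Isg15: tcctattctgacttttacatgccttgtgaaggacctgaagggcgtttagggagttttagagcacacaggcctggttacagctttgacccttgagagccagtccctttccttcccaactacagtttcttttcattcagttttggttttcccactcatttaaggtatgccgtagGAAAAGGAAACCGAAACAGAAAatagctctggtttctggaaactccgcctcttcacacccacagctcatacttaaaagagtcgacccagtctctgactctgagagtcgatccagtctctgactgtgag
Ifit1: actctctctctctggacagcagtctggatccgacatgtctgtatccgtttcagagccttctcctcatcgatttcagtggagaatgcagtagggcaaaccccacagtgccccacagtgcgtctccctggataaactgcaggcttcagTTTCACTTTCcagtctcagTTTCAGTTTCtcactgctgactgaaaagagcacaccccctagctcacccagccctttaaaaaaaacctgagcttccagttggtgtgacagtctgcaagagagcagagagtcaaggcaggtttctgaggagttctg
The core was present in 8 of 13 matched windows of the effector genes that rose (61.5%) and in 3 of 9 windows of the MHC class I genes that rose (33.3%). Among all expressed genes 277 of 9915 windows held it (2.79%), among all genes that rose 4.19%, and among all genes that fell 2.56%. The effector list was made of genes known to be induced by interferon, so a high share there can come from the choice of list alone. Listed effectors that did not rise were not searched as a group. A match describes the letters of the window and is no evidence of binding.

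Signalling genes of the interferon pathway rose in part. Of 17 expressed receptors, Janus kinases, STAT and interferon regulatory factors 6 rose (35.3%, against 10.2% of all expressed genes). None fell (against 9.6%), and 5 of the 6 were higher in both runs. Irf7, the factor that amplifies type I interferon, was at 64.9 CPM in Ascl4 CA1 and 2.02 CPM in EGFP CA1 cells, with at least 10 CPM in 13 Ascl4 CA1 and 1 EGFP CA1 cells. Stat3 and Irf5 rose as well, although Irf5 had a log2 ratio of -0.54 when the cells left out by quality control were put back. The receptor chain Ifngr2 and the kinase Jak1 had log2 ratios of -0.32 and 0.27. Of 7 expressed nucleic acid and pattern sensors 1 rose (14.3%), the Toll-like receptor Tlr2, which reached 10 CPM in 5 Ascl4 CA1 and 2 EGFP CA1 cells.

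MHC class I genes, which present peptides to cytotoxic T cells, rose with the effectors. Of 23 genes on the list 17 were expressed, 9 rose (52.9%, against 10.2% of all expressed genes) and none fell. All 9 had a positive ratio in both runs, and the median log2 ratio was 1.35. Over all 23, with no demand on expression, it was 1.49 and 13 were counted as higher. In the lower run alone 4 class I genes were counted as 2-fold higher, and in the higher run alone 13. B2m, the light chain shared by all class I molecules, was at 0, 59.2 and 8203 CPM in the lowest, median and highest Ascl4 CA1 cell, against 0, 0.773 and 1497 CPM in EGFP CA1 cells. Levels of 10 CPM or more were found in 30 of 45 Ascl4 CA1 cells (66.7%, interval 51.05 to 80%) and in 13 of 46 EGFP CA1 cells (28.3%, interval 15.99 to 43.46%). The heavy chain H2-D1 reached 10 CPM in 19 Ascl4 CA1 and 5 EGFP CA1 cells, and H2-K1 in 12 Ascl4 CA1 and 1 EGFP CA1 cells. H2-Q7, H2-Q6 and H2-T22 rose too, but the class I genes are close copies of one another, so the division of reads among them is uncertain. Canx, a chaperone used by class I and many other proteins, was not counted (512 CPM in Ascl4 CA1, 314 CPM in EGFP CA1).

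MHC class II genes, normally a property of professional antigen-presenting cells, rose in 6 of 8 expressed members (75%, against 10.2% of all expressed genes). When the cells left out by quality control were put back 3 rose, and after thinning 2 did. In the lower run alone 1 was counted as 2-fold higher, and in the higher run alone 8. The median log2 ratio was 3.06. Over all 12 listed genes, with no demand on expression, it was 2.58 and 7 were counted as higher. Cd74, the invariant chain, was at 265 CPM in Ascl4 CA1 and 2.79 CPM in EGFP CA1 cells, with at least 10 CPM in 13 Ascl4 CA1 and 1 EGFP CA1 cells. H2-Aa and H2-Ab1 reached 10 CPM in 5 and 4 Ascl4 CA1 cells and in no EGFP CA1 cell. A class II gene was at that level in 15 of 45 Ascl4 CA1 and 3 of 46 EGFP CA1 cells, and 14 of those 15 Ascl4 CA1 cells also held a microglia marker, as did 38 of all 45 Ascl4 CA1 cells.

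Chemokines and cytokines rose in 12 of 13 expressed members (92.3%, against 10.2% of all expressed genes), of 24 on the list. Their median log2 ratio was 3.50, and 6 were counted after thinning. Over all 24, with no demand on expression, the median was 1.88 and 13 were counted as higher. In the lower run alone 5 were counted as 2-fold higher, and in the higher run alone 9. Ccl4, which attracts macrophages and T cells, was at 0.144, 193.4 and 16906 CPM in the lowest, median and highest Ascl4 CA1 cell, against 0, 1.47 and 2609 CPM in EGFP CA1 cells. Levels of 10 CPM or more were found in 33 of 45 Ascl4 CA1 and 13 of 46 EGFP CA1 cells. Ccl5 reached it in 13 Ascl4 CA1 cells and no EGFP CA1 cell, Ccl12 in 20 Ascl4 CA1 and 5 EGFP CA1 cells, and Ccl3 in 20 Ascl4 CA1 and 8 EGFP CA1 cells. Il1a reached it in 21 Ascl4 CA1 and 9 EGFP CA1 cells, and Ccl2 in 12 Ascl4 CA1 and 2 EGFP CA1 cells. Cx3cl1, the chemokine that neurons themselves make, was the member not counted (906 CPM in Ascl4 CA1, 634 CPM in EGFP CA1). Of the complement genes 1 of 4 expressed members rose, C4b, which reached 10 CPM in 8 Ascl4 CA1 and 1 EGFP CA1 cells.

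Microglia transcripts were present in both groups, and over all cells and in the higher run they were higher in Ascl4 CA1 cells together with these immune genes. The microglia and macrophage list had 24 expressed members of 28. Of these, 9 rose (37.5%, against 10.2% of all expressed genes) and none fell (against 9.6%). The median log2 ratio was 1.09, and 4 of the 9 were higher in both runs. When the cells left out by quality control were put back, 1 member rose and the median was 0.17. The list's median was -0.72 in the lower and 2.05 in the higher run, so its direction differed between the runs. The effectors, class I genes and chemokines had positive medians in both runs, but these too were smaller in the lower run. In the lower and the higher run they were 2.60 and 4.73 for effectors, 0.999 and 1.87 for class I genes, and 1.71 and 4.34 for chemokines. The MHC class II median was instead larger in the lower run. Whether these differences between the runs are linked was not tested. The summed level of the microglia list ranged from 0.864 through a median of 1165 to 61273 CPM in Ascl4 CA1 cells, against 7.30, 673 and 31704 CPM in EGFP CA1 cells. That highest Ascl4 CA1 cell also held the highest summed levels of MHC class I genes (31395 CPM), class II genes (24338 CPM) and chemokines (51961 CPM). It had 24 effectors at 10 CPM or more, the most of any CA1 cell, and its CA1 identity list summed to 1377 CPM. Summed CPM values of these genes include this cell, whereas counting leaves out the highest cell gene by gene. Of 8 defining markers (Cx3cr1, Csf1r, P2ry12, Tmem119, C1qa, C1qb, Itgam and Ptprc) at least 1 reached 10 CPM in 38 of 45 Ascl4 CA1 and 33 of 46 EGFP CA1 cells, and at least 3 did so in 19 Ascl4 CA1 and 17 EGFP CA1 cells. The 8 are named as defining markers, whether or not the rule for naming genes took them. Csf1r was at 166.7 CPM in Ascl4 CA1 and 230 CPM in EGFP CA1 cells. P2ry12 was at 95.6 CPM in Ascl4 CA1 and 102.4 CPM in EGFP CA1 cells. All others of the 8 were higher in the summed reads of Ascl4 CA1 cells. C1qb was at 987.7 CPM in Ascl4 CA1 and 372.2 CPM in EGFP CA1 cells. C1qa was at 259.4 CPM in Ascl4 CA1 and 125.7 CPM in EGFP CA1 cells. Cx3cr1, Tmem119, Itgam and Ptprc were less abundant, and Tmem119 and Itgam were among the members counted as higher. In the lower run, however, Tmem119 had a log2 ratio of -0.26 and Itgam one of -1.75. Of the 8 only Ptprc had a positive ratio there (0.22), whereas all 8 had positive ratios in the higher run. None of the 8 was at 0 in either group. Aif1 and Cd68, of microglia and macrophages, rose, with positive ratios in both runs, and Cd14 rose over all cells with log2 ratios of -0.39 in the lower and 7.63 in the higher run.

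Of the 28 Ascl4 CA1 cells with at least 3 effector genes, 26 also held at least 1 microglia marker and 2 held none. Such a marker was held by 38 of all 45 Ascl4 CA1 cells (84.4%). Ccl5 was found in no cell without a microglia marker, and 12 of its 13 cells held none of 7 T cell markers, which few cells of either group held. Any T cell marker reached 10 CPM in 2 Ascl4 CA1 and 3 EGFP CA1 cells, and Cd8a and Nkg7 had no read in either group. Without the cells that had 3 or more of the 8 microglia markers, an alternative chosen after seeing the data that left 26 Ascl4 CA1 and 29 EGFP CA1 cells, the median log2 ratio was 3.43 over the effectors, 1.18 over MHC class I, 2.38 over MHC class II, 2.99 over the chemokines and 1.20 over the microglia list itself. In those cells 6 effectors, 6 class I genes, 1 class II gene, 7 chemokines and 11 microglia genes (9 over all cells) were counted as higher. The part of microglia RNA in the immune genes was not tested.

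Markers of the other cell types that a pipette could draw up were mixed. Astrocyte markers fell in 6 of 13 expressed members (46.2%, against 9.6% of all expressed genes) and rose in none, and 3 of the 6 were lower in both runs. Aldoc had a median of 1.28 CPM in Ascl4 CA1 cells and 317 CPM in EGFP CA1 cells, with at least 10 CPM in 13 Ascl4 CA1 and 29 EGFP CA1 cells. Slc1a2, the main glutamate transporter of astrocytes, had a summed level of 39.3 CPM in Ascl4 CA1 and 128.6 CPM in EGFP CA1 cells, with 18 Ascl4 CA1 and 19 EGFP CA1 cells at 10 CPM. Apoe was not counted (1038 CPM in Ascl4 CA1, 550 CPM in EGFP CA1). The summed astrocyte list had a median of 900 CPM in Ascl4 CA1 and 1695 CPM in EGFP CA1 cells, and it ranged from 5.26 to 11598 CPM in Ascl4 CA1 and from 4.40 to 22934 CPM in EGFP CA1 cells. Its part in the genes that fell was not tested.

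Granule cell markers rose in 3 of only 6 expressed members of 20 (50%, against 10.2% of all expressed genes), Dock10, Rfx3 and C1ql2. The summed granule list exceeded the summed CA1 list in 3 Ascl4 CA1 cells and no EGFP CA1 cell, and without those 3 cells 986 genes rose and 935 fell. Dock10 reached 10 CPM in 9 Ascl4 CA1 and 0 EGFP CA1 cells and C1ql2, a synaptic organizer of mossy fibres, in 3 Ascl4 CA1 and 0 EGFP CA1 cells. The summed granule list had a median of 1092 CPM in Ascl4 CA1 and 591 CPM in EGFP CA1 cells, and its most abundant member Calb1, which CA1 cells also express, was not counted (1104 CPM in Ascl4 CA1, 617 CPM in EGFP CA1). Of 6 expressed interneuron markers 1 rose and 1 fell, Pvalb. Of 7 oligodendrocyte markers Mag rose, in 4 Ascl4 CA1 and 0 EGFP CA1 cells at 10 CPM, and Olig1 fell, while Mbp was at 544 CPM in Ascl4 CA1 and 518 CPM in EGFP CA1 cells. Of the endothelial and mural list 1 member was expressed, and it was not counted.

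**Figure D3:**
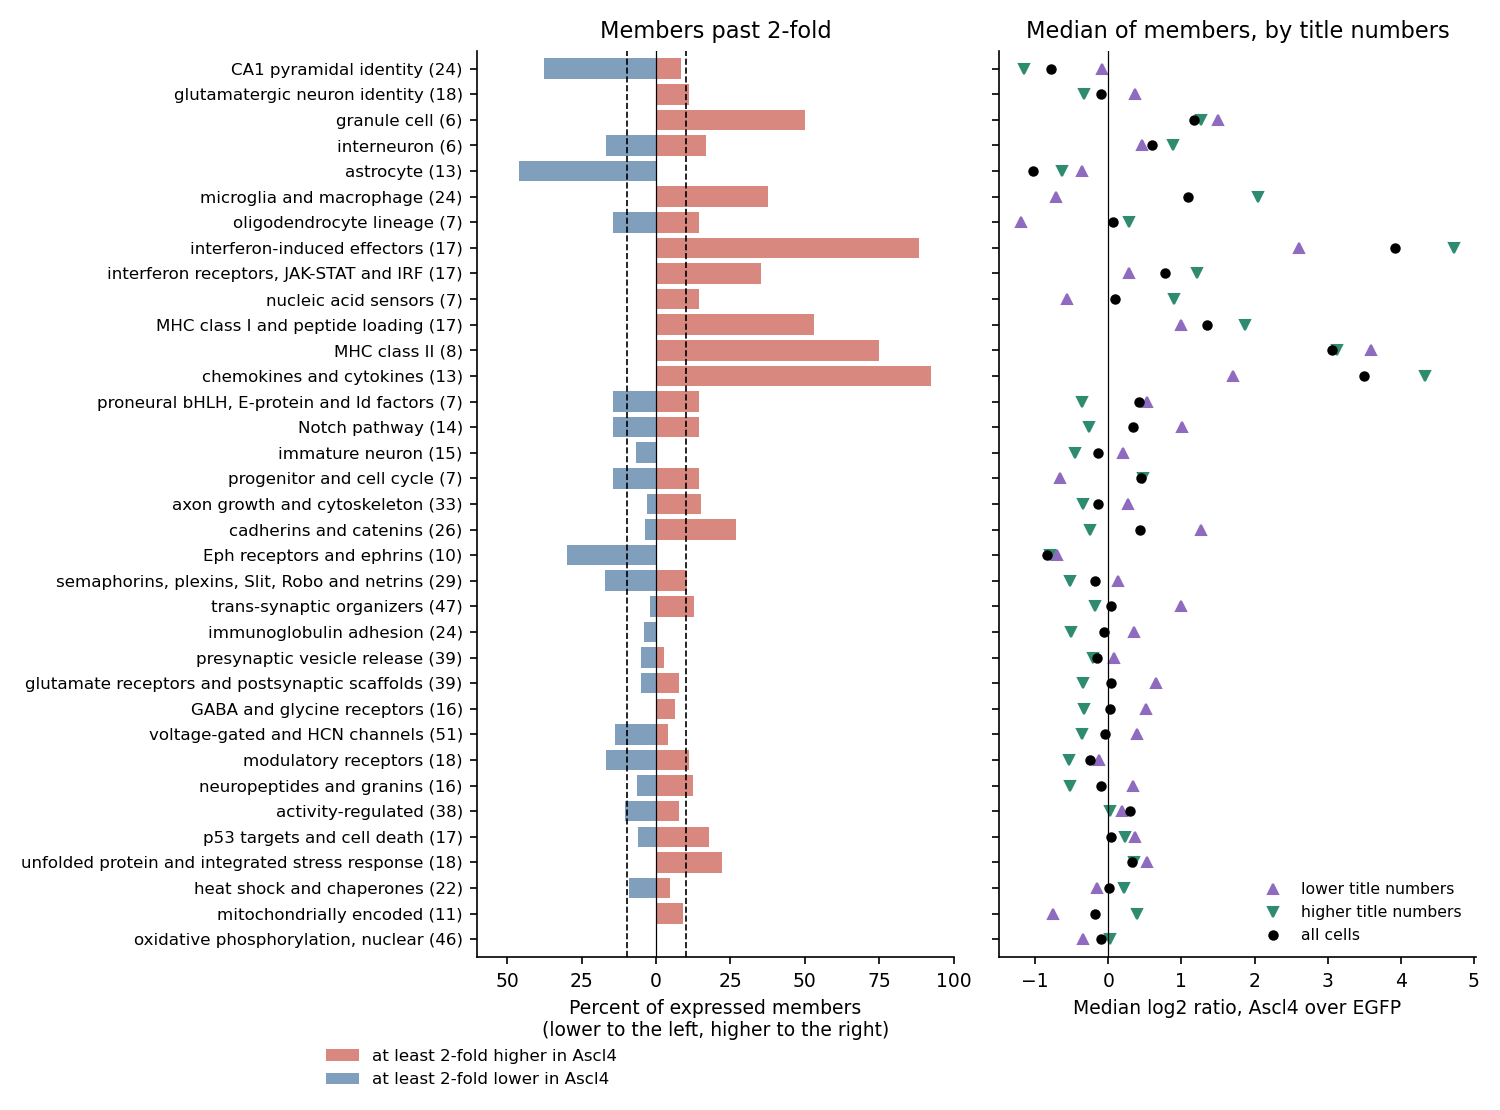
Gene lists with at least 6 expressed members (number in brackets). Left, percent of expressed members at least 2-fold lower (bars to the left) or higher (bars to the right) in Ascl4 CA1 cells, with dashed lines at the shares of all expressed genes, 9.6% lower and 10.2% higher. Right, the median log2 ratio of Ascl4 over EGFP in all cells (circles), in the lower run of title numbers (upward triangles) and in the higher run (downward triangles). Interferon effectors and chemokines reach 88.2 and 92.3% higher, the microglia medians of the runs lie on opposite sides of 0, and most synapse and channel lists have all-cell medians near 0 with the runs on either side of it.

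Cadherins, which join neurons through like molecules on both cells, rose in several members. Of 26 expressed cadherins and catenins 7 rose (26.9%, against 10.2%) and 1 fell, and 6 of the 7 were higher in both runs. Cdh4, a classical cadherin of axon growth, reached 10 CPM in 9 Ascl4 CA1 and 2 EGFP CA1 cells, and Celsr2, an atypical cadherin of planar polarity, was at 266 CPM in Ascl4 CA1 and 80.6 CPM in EGFP CA1 cells. The catenin Ctnnd1 rose to 56.8 CPM in Ascl4 CA1 cells, against 13.3 CPM in EGFP CA1 cells, and Cdh6 and Ctnna2 rose as well. Pcdh20, a protocadherin, fell (22.8 CPM in Ascl4 CA1, 84.7 CPM in EGFP CA1). The list's median was 1.27 in the lower and -0.25 in the higher run, so the list as a whole had no common direction.

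Eph receptors and ephrins fell in 3 of 10 expressed members (30%, against 9.6% of all expressed genes) and rose in none. Their median log2 ratio was -0.84 over all cells, -0.69 in the lower and -0.80 in the higher run. Of the 3 that fell, 2 were lower in both runs. Epha6 was at 13.7 CPM in Ascl4 CA1 and 51.4 CPM in EGFP CA1 cells, and the ligand Efnb2 at 14.3 CPM in Ascl4 CA1 and 40.3 CPM in EGFP CA1 cells. The more abundant Epha4 and Epha7 were not counted, with log2 ratios of -0.40 and 0.26. Of 29 expressed semaphorin, plexin, Slit, Robo and netrin genes 3 rose (10.3%, against 10.2% of all expressed genes) and 5 fell (17.2%, against 9.6%). Only 1 of those 3 was higher in both runs, and only 2 of those 5 were lower in both. Robo3, a Slit receptor family member known for midline crossing, reached 10 CPM in 8 Ascl4 CA1 and 0 EGFP CA1 cells, and Plxna1, a semaphorin receptor, was at 26.1 CPM in Ascl4 CA1 and 60.7 CPM in EGFP CA1 cells. Plxnb2 rose and the netrin receptor Dcc fell over all cells, but Plxnb2 had a log2 ratio of -0.10 in the higher run and Dcc one of 0.42 in the lower. Unc5a, another netrin receptor, was not counted.

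Trans-synaptic organizers, which align the sides of a synapse, rose in 6 of 47 expressed members (12.8%, near the 10.2% of all expressed genes) and fell in 1. The list's median was 1.00 in the lower and -0.19 in the higher run. Flrt1 was at 26.8 CPM in Ascl4 CA1 and 7.09 CPM in EGFP CA1 cells, and Tenm1, a teneurin, at 58.9 CPM in Ascl4 CA1 and 13.8 CPM in EGFP CA1 cells, although 11 cells of each group reached 10 CPM. Elfn2 and Slitrk4 also rose, with positive ratios in both runs. Flrt2 fell over all cells but had a log2 ratio of 3.92 in the lower run and -4.89 in the higher. Of 24 expressed immunoglobulin adhesion genes 1 fell, Cntn2 (3.502 CPM in Ascl4 CA1, 26.7 CPM in EGFP CA1), and none rose. The abundant organizer Nptn and adhesion gene Cadm1 had log2 ratios of -0.12 and 0.72. Of 33 expressed axon growth and cytoskeleton genes 5 rose (15.2%, against 10.2% of all expressed genes) and 1 fell (3.03%, against 9.6%). The growth regulator Klf7 was at 79.1 CPM in Ascl4 CA1 and 18.5 CPM in EGFP CA1 cells, and the actin regulators Cap1 and Cotl1 rose as well. The neurofilament genes moved in opposite ways, with Nefh at 26.1 CPM in Ascl4 CA1 and 4.64 CPM in EGFP CA1 cells and Nefm at 152.99 CPM in Ascl4 CA1 and 314 CPM in EGFP CA1 cells.

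The machinery of transmission changed in few members, below the 10.2% and 9.6% of all expressed genes. The list medians were 0.08 in the lower and -0.21 in the higher run for presynaptic genes, 0.65 and -0.35 for glutamate receptors and scaffolds, and 0.52 and -0.34 for GABA and glycine receptors. Of 39 expressed presynaptic genes 1 rose and 2 fell. Pclo, a scaffold of the active zone, was at 60.7 CPM in Ascl4 CA1 and 228.2 CPM in EGFP CA1 cells, Ppfia2 at 60.0 CPM in Ascl4 CA1 and 161.8 CPM in EGFP CA1 cells, and the active zone gene Rimbp2 rose to 14.7 CPM in Ascl4 CA1 cells, against 4.75 CPM in EGFP CA1 cells. Snap25, a core fusion protein, was at 3520 CPM in Ascl4 CA1 and 3620 CPM in EGFP CA1 cells, with every cell of both groups at 10 CPM. Of 39 expressed glutamate receptor and scaffold genes 3 rose and 2 fell. The AMPA receptor genes Gria2 (1358 CPM in Ascl4 CA1, 1733 CPM in EGFP CA1) and Gria1 (661 CPM in Ascl4 CA1, 793 CPM in EGFP CA1) were not counted. Neto2, a kainate receptor auxiliary subunit, and Grin3a, an NMDA receptor subunit, rose, with positive ratios in both runs, and Grin2d fell, with negative ones. Grm4 reached 10 CPM in 7 Ascl4 CA1 and 0 EGFP CA1 cells. Of 16 expressed GABA and glycine receptor genes 1 rose, the extrasynaptic subunit Gabrd (53.4 CPM in Ascl4 CA1, 2.02 CPM in EGFP CA1), and Gabra5, the subunit typical of CA1, had a log2 ratio of -0.36.

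Ion channel genes moved in both directions. Of 51 expressed voltage-gated and HCN channel genes 7 fell (13.7%, against 9.6% of all expressed genes) and 2 rose, and 6 of the 7 were lower in both runs. The list's median log2 ratio was -0.04 over all cells, 0.40 in the lower and -0.35 in the higher run. Scn1a, a sodium channel, was at 28.1 CPM in Ascl4 CA1 and 128.3 CPM in EGFP CA1 cells, and Kcnip2, an auxiliary subunit of A-type potassium channels, at 74.2 CPM in Ascl4 CA1 and 158.1 CPM in EGFP CA1 cells. Kcnk2, a leak channel, fell over all cells with a log2 ratio of 2.80 in the lower and -3.08 in the higher run. Kcnh7 and the calcium channel Cacna1b rose, and Scn8a was not counted (331 CPM in Ascl4 CA1, 350 CPM in EGFP CA1). Among 18 expressed modulatory receptors 3 fell (16.7%, against 9.6% of all expressed genes) and 2 rose (11.1%, against 10.2%). Those that fell were the serotonin receptor Htr1a, the dopamine receptor Drd5 and the muscarinic receptor Chrm1. The adrenergic receptor Adra1a was among those that rose. Drd5 reached 10 CPM in 0 Ascl4 CA1 and 6 EGFP CA1 cells, and Chrm1 in 18 Ascl4 CA1 and 28 EGFP CA1 cells. Of the neuropeptides and granins Penk, the enkephalin precursor, fell (6 Ascl4 CA1 and 18 EGFP CA1 cells at 10 CPM), whereas Chga, a granin of dense-core vesicles (480 CPM in Ascl4 CA1, 144.6 CPM in EGFP CA1), and the prohormone convertase Pcsk1 rose. The peptide processing enzyme Cpe was at 2177 CPM in Ascl4 CA1 and 3008 CPM in EGFP CA1 cells.

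Activity-regulated genes had no common direction. Of 38 expressed members 3 rose (7.89%, against 10.2% of all expressed genes) and 4 fell (10.5%, against 9.6%). Jun was at 206.8 CPM in Ascl4 CA1 and 492 CPM in EGFP CA1 cells, and Arc, which was chosen after its values were seen, at 604 CPM in Ascl4 CA1 and 1332 CPM in EGFP CA1 cells. Sik1, a kinase induced by cAMP, rose, while Fos (1912 CPM in Ascl4 CA1, 1339 CPM in EGFP CA1) and Plk2 (1868 CPM in Ascl4 CA1, 1902 CPM in EGFP CA1) were not counted. Genes of the unfolded protein and integrated stress response rose in 4 of 18 expressed members (22.2%, against 10.2%) and fell in none, and all 4 had positive ratios in both runs. Dnajb9, a cochaperone of the endoplasmic reticulum, reached 10 CPM in 25 Ascl4 CA1 and 10 EGFP CA1 cells, Herpud1, of protein degradation at that membrane, in 25 Ascl4 CA1 and 12 EGFP CA1 cells, Manf in 23 Ascl4 CA1 and 12 EGFP CA1 cells, and Chac1, a target of the integrated stress response, in 9 Ascl4 CA1 and 1 EGFP CA1 cells. Hspa5, the main chaperone of the endoplasmic reticulum, was not counted (1179 CPM in Ascl4 CA1, 999 CPM in EGFP CA1).

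Of 17 expressed p53 targets and cell death genes 3 rose (17.6%, against 10.2% of all expressed genes) and 1 fell (5.88%, against 9.6%). Bid, which promotes cell death, and Bcl2, which prevents it, were among those that rose. Bcl2 reached 10 CPM in 4 cells of each group, and Bid had a log2 ratio of -0.48 when the cells left out by quality control were put back. Of 22 expressed heat shock genes Hspa4 rose and 2 fell, among them the Hsp90 partner Chordc1 (56.0 CPM in Ascl4 CA1, 138.03 CPM in EGFP CA1), and Hspa8 was at 1671 CPM in Ascl4 CA1 and 1557 CPM in EGFP CA1 cells. None of the 46 nuclear genes of oxidative phosphorylation was counted in either direction, and their median log2 ratio was -0.10.

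Interferon effectors, MHC class I genes and chemokines also rose in granule cells that had received the same viruses. Among those cells (51 Ascl4 GC and 47 EGFP GC cells, from Calb1-Cre mice, sharing no cell with the CA1 groups) 12.5% of expressed genes rose and 15.4% fell by the same rule. The genes that rose in both cell types made up 18.4% of those that rose in CA1 and 15.1% of those that rose in granule cells, and the genes that fell in both made up 18.7% of the CA1 genes and 11.7% of the granule cell genes. Of the 17 interferon effectors expressed in CA1 13 rose in granule cells, with a median log2 ratio of 3.95, of the 17 MHC class I genes 10 rose, with a median of 1.45, and of the 13 chemokines 8 rose, with a median of 3.42. B2m was at 189.6 CPM in Ascl4 GC and 12.9 CPM in EGFP GC cells. Of the 24 microglia genes expressed in CA1, 14 rose there too. Arhgef25 fell in granule cells as in CA1 (14.6 CPM in Ascl4 GC, 150.3 CPM in EGFP GC), and Myo5b did too (44.3 CPM in Ascl4 GC, 142.2 CPM in EGFP GC). Neurod6 was at 1.23 CPM in Ascl4 GC and 0.112 CPM in EGFP GC cells, Fibcd1 at 0.0444 CPM in Ascl4 GC and 3.21 CPM in EGFP GC cells, and both are thus near 0 in cells that should lack them.

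**Figure D4:**
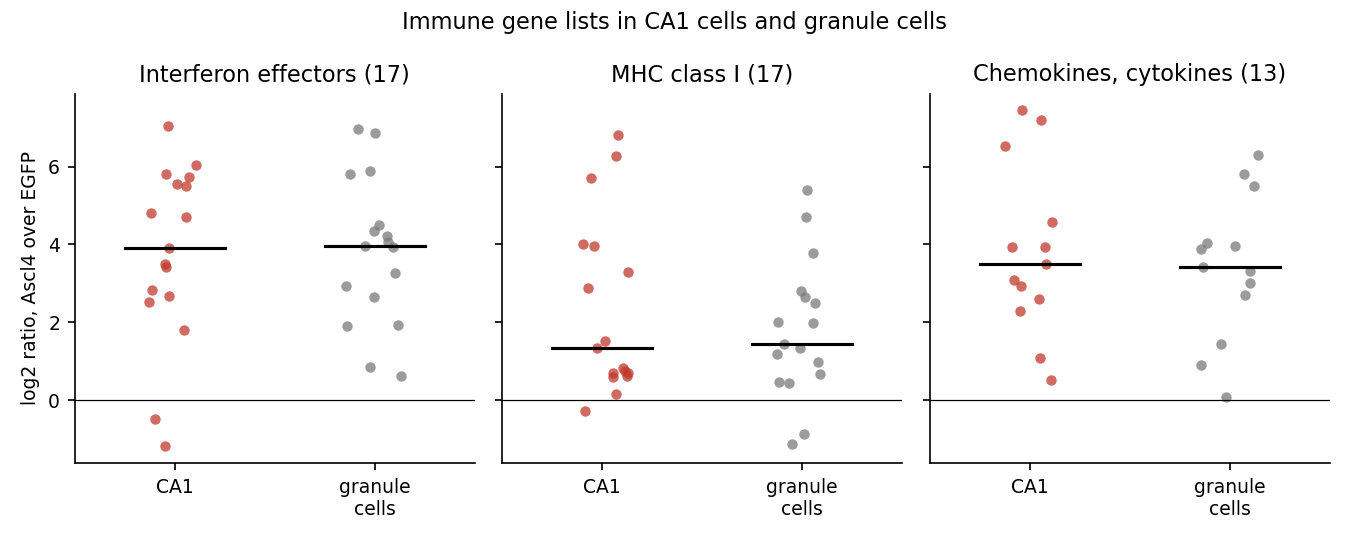
The log2 ratio of Ascl4 over EGFP, on the vertical axis, of the interferon effectors, MHC class I genes and chemokines that were expressed in CA1 cells, in CA1 cells (left) and in granule cells (right) of each panel. Each point is 1 gene and the bar is the median. The medians are 3.92 in CA1 and 3.95 in granule cells for the effectors, 1.35 in CA1 and 1.45 in granule cells for MHC class I, and 3.50 in CA1 and 3.42 in granule cells for the chemokines.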

How the data were processed

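The submitters' processing notes name STAR, HTSeq and the build GRCm38.p4, without tool versions or settings. The authors deposited whole-number read counts per gene for all cells and for the cells kept by quality control, and a table of normalized signal, in which the authors divided each cell's counts by 1 factor. How cells were filtered and how the factors were made is not stated in the labels. The series text states 51 Ascl4 CA1 and 48 EGFP CA1 cells past quality control, whereas the deposited table holds 45 and 46 and was used. Spike-in rows (92) held 4 reads and were left out, which left 22870 genes.

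Groups came from cell titles. Each group counted as 1 sample because the labels name no animal, so no count model was fitted and no p-value computed. Summed counts were scaled to CPM and compared as log2 ratios after adding 1 CPM to each level, so that low genes show too small a fold. Deeper cells weigh more in sums. Whether counting used strand is not given, so overlapping genes may share reads. A cell's pipette sample can hold RNA of neighbouring cells, and doublets were not called.

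The members and the 41 gene lists (1108 different genes found by symbol) were chosen with earlier results of these data known. Genes were named by a rule: the 30 genes with the widest change in the share of cells at 10 CPM described in the text, the markers Ascl4, Neurod6 and Fibcd1, and from each list up to 6 counted members by that change and up to 2 uncounted ones by level. Poisson and Clopper-Pearson intervals are exact, at 95%. Positions came from the GENCODE annotation of GRCm38. Promoters came from RefSeq for 7623 of 9781 expressed genes. Alternatives were other folds, pseudocounts, filters, scalings (edgeR 4.0.16 TMM, DESeq2 1.42.0 size factors) and cell sets. Scripts were checked on simulated counts with planted changes. They used R 4.3.3 and Python 3.11.15 with scipy 1.17.1, numpy 2.4.6, matplotlib 3.10.9 and pandas 2.3.3. Raw reads were not used here. Results for some items are not reported here.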

Additional observations from a re-analysis of the deposited data

Results flagged for a closer look

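The 13 Ascl4 CA1 cells and 8 EGFP CA1 cells left out by the authors' quality control belong to no comparison above and were looked at for Ascl4 because they are data outside it. Ascl4 was at a median of 5902 CPM in the 13 left-out Ascl4 CA1 cells, with 12 of them at 200 CPM or more, and at a median of 29.96 CPM in the 8 left-out EGFP CA1 cells, with 1 at that level. The left-out cells were shallower, with medians of 956807 reads in Ascl4 CA1 and 440912 reads in EGFP CA1. Neurod6 reached 10 CPM in 2 of the 13 left-out Ascl4 CA1 cells and in 5 of the 8 left-out EGFP CA1 cells.

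Of the 30 genes with the widest change in CA1, 7 were counted in the same direction in granule cells and 3 in the opposite one, where 12.5% of all expressed genes rose and 15.4% fell. Stxbp2 had a log2 ratio of 1.76 in CA1 and -1.21 in granule cells, Epha6 one of -1.84 in CA1 and 1.29 in granule cells, and Kcnab1 one of -1.43 in CA1 and 1.67 in granule cells. With 1 sample in each group the difference between the cell types was not tested. Over all genes, those that rose in CA1 and fell in granule cells made up 12.1% of the genes that rose in CA1 and 8.06% of those that fell in granule cells. That is below the 15.4% of all expressed genes that fell in granule cells. Those that fell in CA1 and rose in granule cells numbered 99, or 10.5% of the genes that fell in CA1 and 8.13% of those that rose in granule cells, below the 12.5% of all expressed genes that rose there.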

How the results depend on the processing

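Of the 40 recounts of genes that rose or fell (1000 and 939 in the report), 28 stayed within 1.5 times. A 1.5-fold limit gave 1811 higher and 1789 lower, a 4-fold limit 288 and (rounded) 2.1e+02, a pseudocount of 10 CPM 469 and 424, and the stricter filter (50% of cells and 50 CPM) 369 and 364, each by its own construction. Without a filter 1735 rose. The lower title numbers alone gave 2075 higher and the higher title numbers alone 1467 lower. Without cells holding 3 or more microglia markers, an alternative chosen after seeing the data, 1428 fell. For the last 3 values the cause was not tested. TMM and DESeq2 scaling moved the median of all genes to -0.13 and the split to 853 higher and 1109 lower, or 851 and 1112, and the authors' normalized values to 983 and 1252.

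The 30 genes with the widest change were chosen to have the same sign in both runs of title numbers. Of them, 26 were counted in the lower and 24 in the higher run alone, 11 at the 4-fold limit, and 27 to 30 in the other alternatives. Of the other named genes that were counted as higher or lower, 9 changed sign in at least 1 alternative, and the cause was not tested. Named genes that were not counted were left out of that number. With all unfiltered cells Irf5 had a log2 ratio of -0.54 and Bid -0.48. Without the deepest 10% of cells Mxd4 had 0.13. In the lower title numbers Cd14 had -0.39, Dcc 0.42, Flrt2 3.92, Kcnk2 2.80 and the microglia list a median of -0.72. Plxnb2 had -0.10 in the higher title numbers and -0.67 without microglia-marker cells, where Numb had -0.10. The effectors counted as higher numbered 15 in the report, 7 after thinning, 12 with unfiltered cells and 6 without microglia-marker cells. Microglia genes counted were 9 in the report and 1 with unfiltered cells. No paired analysis was possible because each group is 1 sample and cells of different groups share no animal or replicate label. Low counts limit genes seen in few cells.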
